A study of Mus musculus with 7 samples.

Results

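Mitochondrial ribosomal protein genes were followed in mouse spleen cells taken after a transplant of splenocytes. The members are the genes whose symbol on the array begins with Mrpl or Mrps and a digit, read from probe sets with exactly 1 symbol. Each gene was represented by the probe set with the highest mean signal over the 7 arrays. The rule found 74 genes, 47 named Mrpl and 27 named Mrps, among 12393 genes on the array, and these 74 have 127 of the 22626 probe sets analysed. All 74 chosen probe sets passed the filter on low signal. RefSeq lists 78 protein-coding mouse genes with such symbols, and Mrpl30, Mrpl53, Mrps10 and Mrps27 have no probe set of their own here.

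Female mice aged 9 to 12 weeks were irradiated with 10.0 Gray, received splenocytes 4 to 6 h later, and their spleen cells were collected on day 4. In all groups the recipients were C57BL/6 (B6). Allogeneic recipients received C3H/HeN splenocytes and an antibody: anti-ICOSL from day 0 (2 arrays), anti-ICOSL from day 3 (2 arrays) or rat IgG as isotype control (2 arrays). ICOSL is the ligand of the T cell costimulatory receptor ICOS. The antibody was injected into the peritoneum as 500 µg and then as 200 µg every other day. The starting day of the isotype control is not given apart from that of the antibody. Syngeneic recipients received B6 splenocytes, with no antibody named (1 array). Each comparison of isotype with syngeneic therefore joins donor strain, alloreaction and control antibody, which cannot be told apart. Allogeneic groups had 4 mice each per experiment, and the combined RNA of a group was put on its 2 arrays, so the p-values measure the spread between arrays, which may be technical. A spleen after irradiation holds both surviving host cells and donor cells, and the arrays do not separate them.

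Mitochondria make a small set of proteins on ribosomes of their own, and these proteins are core subunits of the respiratory chain and of ATP synthase. In mammals the RNA of these ribosomes comes from mitochondrial DNA, while all of their proteins are encoded in the nucleus, made in the cytosol and imported. Part of the set descends from the bacterial ribosome and the rest was added during the evolution of mitochondria. In T cells, blocking mitochondrial translation is known to curb effector functions.

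By the placement of their proteins, 49 members belong to the large subunit and 24 to the small subunit. Mrps18a and Mrps30 count with the large subunit despite their names. Mrps36 is named for the small subunit, but its product is now known as a component of the 2-oxoglutarate dehydrogenase complex. Of the 73 ribosomal members, 46 have a bacterial counterpart and 27 have none.

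Promoters are shown because the transcription factors NRF1, GABP and YY1 are known to bind promoters of nuclear genes for mitochondrial proteins, and because several members share a start region with a neighbour. RefSeq windows (GRCm38.p6) reach from 250 bases before the start site to 50 bases after it, and 65 of the 74 members matched one or more. Capitals mark the words searched on both strands: GCGCATG for NRF1, CCGGAAG for ETS factors such as GABP, and ATGGCGG for YY1. The other strand of the last reads CCGCCAT. Mrpl22 is the member that held all 3 words. Among the counted probe sets, Mrpl3 had the narrowest range of signal and Mrpl49 the largest positive change between isotype and syngeneic arrays. Mrps15 had the largest positive change between anti-ICOSL day 3 and isotype arrays, and Mrps11 and Mrpl46 lie head to head.
Mrpl22 promoter, GRCm38.p6 chr11:58171414-58171713, plus strand: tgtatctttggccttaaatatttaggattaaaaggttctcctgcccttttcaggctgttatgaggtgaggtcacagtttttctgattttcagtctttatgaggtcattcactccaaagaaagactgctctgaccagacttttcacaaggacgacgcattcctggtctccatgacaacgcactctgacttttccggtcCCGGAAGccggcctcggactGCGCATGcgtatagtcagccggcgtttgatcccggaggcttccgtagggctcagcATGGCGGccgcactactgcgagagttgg
Mrpl3 promoter, GRCm38.p6 chr9:105053018-105053317, plus strand: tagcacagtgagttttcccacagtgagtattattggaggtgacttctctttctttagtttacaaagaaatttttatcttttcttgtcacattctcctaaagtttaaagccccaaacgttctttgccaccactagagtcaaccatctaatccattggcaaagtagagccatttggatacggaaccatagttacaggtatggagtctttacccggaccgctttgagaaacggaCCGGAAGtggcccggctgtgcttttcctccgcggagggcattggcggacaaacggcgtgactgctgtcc
Mrpl49 promoter, GRCm38.p6 chr19:6057706-6058005, minus strand: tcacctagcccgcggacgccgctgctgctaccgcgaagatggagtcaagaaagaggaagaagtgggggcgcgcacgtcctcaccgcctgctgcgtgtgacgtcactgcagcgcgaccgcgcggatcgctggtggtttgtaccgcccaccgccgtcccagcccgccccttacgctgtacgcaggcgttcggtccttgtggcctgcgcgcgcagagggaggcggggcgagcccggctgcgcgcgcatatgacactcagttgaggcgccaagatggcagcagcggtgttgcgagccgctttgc
Mrps15 promoter, GRCm38.p6 chr4:126046678-126046977, plus strand: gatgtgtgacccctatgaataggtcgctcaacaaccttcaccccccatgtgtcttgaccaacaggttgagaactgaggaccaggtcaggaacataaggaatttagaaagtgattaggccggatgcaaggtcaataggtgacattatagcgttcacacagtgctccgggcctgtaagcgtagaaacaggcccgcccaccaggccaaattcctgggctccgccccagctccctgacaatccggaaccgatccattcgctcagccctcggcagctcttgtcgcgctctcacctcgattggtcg
Mrps11 promoter, GRCm38.p6 chr7:78782881-78783180, plus strand: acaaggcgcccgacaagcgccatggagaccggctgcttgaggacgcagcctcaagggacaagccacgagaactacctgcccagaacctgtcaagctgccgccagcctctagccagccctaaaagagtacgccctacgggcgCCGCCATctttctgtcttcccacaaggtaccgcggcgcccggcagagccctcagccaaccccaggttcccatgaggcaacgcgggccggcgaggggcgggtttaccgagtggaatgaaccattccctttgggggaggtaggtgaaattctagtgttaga
Mrpl46 promoter, GRCm38.p6 chr7:78783040-78783339, minus strand: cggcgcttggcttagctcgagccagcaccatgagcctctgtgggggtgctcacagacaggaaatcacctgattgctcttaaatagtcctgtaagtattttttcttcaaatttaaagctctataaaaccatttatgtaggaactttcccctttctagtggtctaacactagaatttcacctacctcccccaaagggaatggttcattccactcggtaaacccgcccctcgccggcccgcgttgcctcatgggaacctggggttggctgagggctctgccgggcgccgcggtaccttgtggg

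The ETS word occurred in 24 of the 65 matched members (36.9%), against 20.2% of 7276 matched tested genes and 9.93% of all 27025 genes with a window. The YY1 word was found in 11 members (16.9%), against 9.33% of tested genes and 4.69% of all genes. Apart from Mrps11, at position −109, these YY1 matches began at positions 3 to 31 after the start site. Whether they lie in coding sequence was not tested. The NRF1 word was found in 8 members (12.3%), against 8.01% and 4.41%. At least 1 of the 3 words was present in 35 members (53.8%), against 32.6% of tested genes and 16.8% of all genes. The E-box CACGTG, the word bound by Myc and Max, was present in 5 members (7.69%), against 11.8% and 8.09%. Median GC content of the windows was 58.7% for members and 60.3% for tested genes. A match of letters is a description and not a binding site. Between isotype and syngeneic arrays, the 24 members with the ETS word had a median log2 change of 0.02 and the 41 without it 0.07.

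A start region facing that of another gene, with overlapping windows on opposite strands, was found for 21 of the 65 members (32.3%), against 17.4% of tested genes. Mrps11, a small-subunit protein, and Mrpl46, a large-subunit protein, share 141 bases of their windows on chromosome 7, with 42 bases between the start sites. Their changes between isotype and syngeneic arrays were 0.54 for Mrps11 and 0.01 for Mrpl46 (log2). Other facing neighbours include Sars2, the mitochondrial seryl-tRNA synthetase, beside Mrps12, and Twnk, the mitochondrial DNA helicase, beside Mrpl43. Ndufb5, a subunit of respiratory complex I, faces Mrpl47. Of the 21 members, 13 had a tested neighbour, with Mrps11 and Mrpl46 counted each for the other. Twnk was not tested. In 5 of these 13 pairs both changes between isotype and syngeneic arrays had the same sign. The neighbour passed the test in 1 of the 13, beside 6.62% of all tested probe sets. It was Ighmbp2, a helicase gene, which fell in isotype arrays (log2 change −1.29, limma adjusted p = 0.0203). Mrpl21 beside it had a change of 0.31 (adjusted p = 0.377).

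Signals are MAS5 intensities, scaled by array to 1 trimmed mean, so each value is relative to the rest of the RNA on its array. Changes are differences of log2(signal + 50), and a gene is said to rise or fall when the limma p, adjusted over all 15372 tested probe sets, is at most 0.05. Array medians ran from 145.3 to 174.3. For arrays, their number limits the precision. The labelled splenocytes carried T cell and B cell markers. Over the 7 arrays their summed signals were 31127 to 51435 for T cells and 12282 to 28358 for B cells. Gapdh 3′ to 5′ signal ratios, a measure of RNA integrity, were 0.767 to 0.865 on the 6 allogeneic arrays and 0.957 on the syngeneic array. The same ratios of Actb were 0.967 to 1.02 on the allogeneic arrays and 1.03 on the syngeneic array.

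The family held a similar share of the signal on all 7 arrays. The summed signal of the 74 members was 75033 and 74508 in the day 0 group, 78983 and 77491 in the day 3 group, 76507 and 73082 under isotype antibody and 73394 on the syngeneic array. These sums are 0.428% to 0.472% of the signal of each array. The syngeneic sum lies between the sums of the 2 isotype arrays. The median over members of the deviation from each gene's own mean was lowest on the syngeneic array, at −0.067, and highest on isotype array 1, at 0.056 (log2). The 2 isotype arrays were thus on either side of 0, at 0.056 and −0.040.

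**Figure D1:**
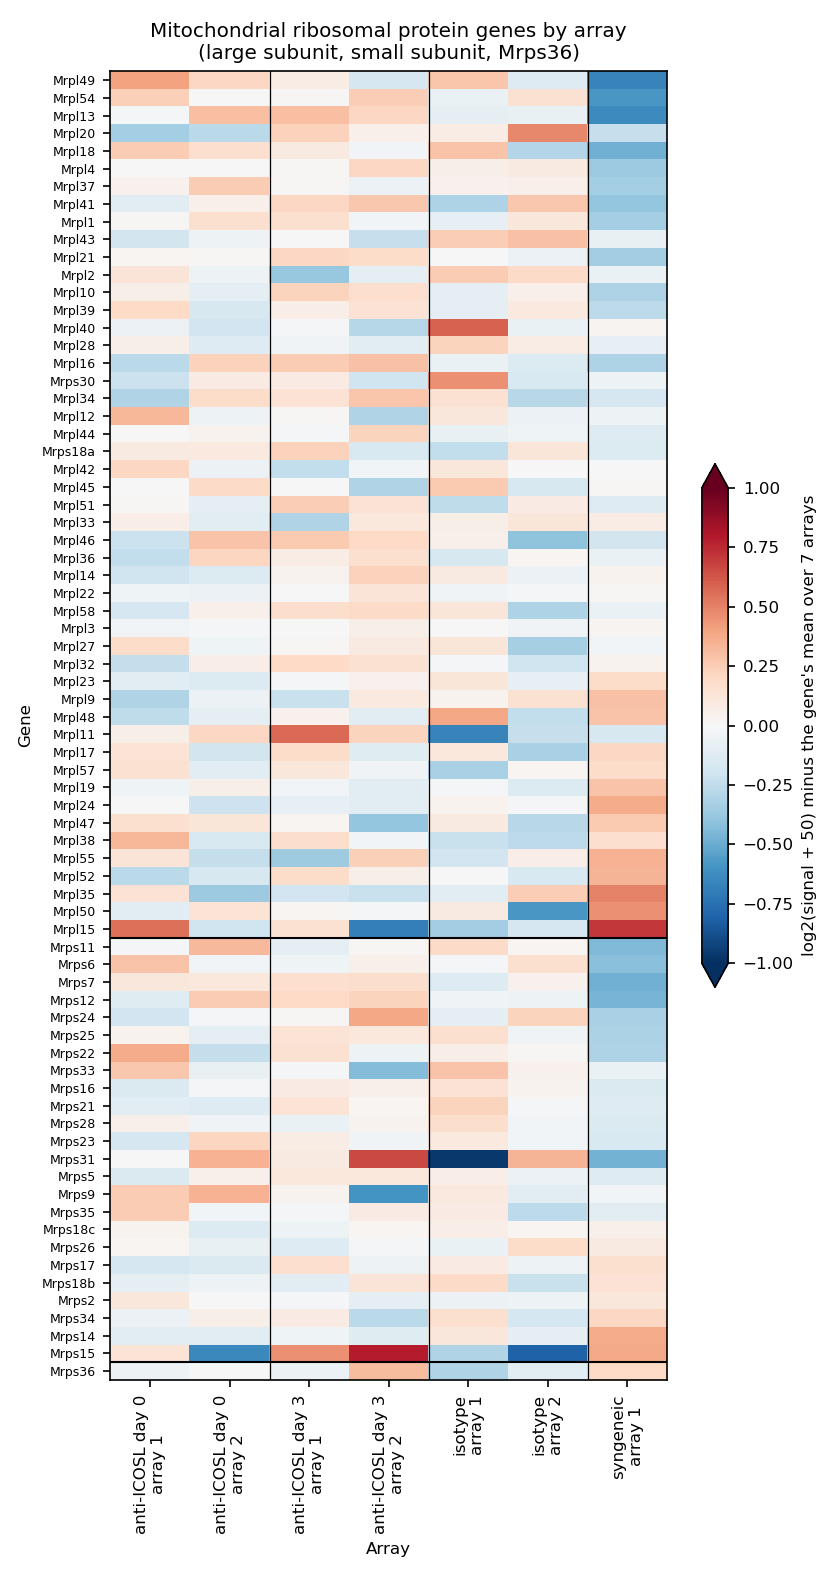
Each row is a member gene and each column an array; colour gives log2(signal + 50) minus the gene's mean over the 7 arrays, with large-subunit members above, small-subunit members below and Mrps36 last. Rows are ordered by the change between isotype and syngeneic arrays, and the strongest colours belong to a few genes such as Mrps31 on isotype array 1, Mrps15 and Mrpl15.

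The spread of single members was narrow. The range over the 7 arrays had a median of 0.56 on the log2 scale, against 0.79 for all 8947 tested genes. It reached 2-fold for 6 of 74 members (8.11%) and for 35.0% of tested genes. The median signal of members was 907.8 to 1085 on the 7 arrays, while tested genes reach down to a group mean of 99.67. Members were not compared with genes of similar signal, so the part of signal level in this difference was not tested. Mrpl3, a large-subunit protein with a bacterial counterpart, had the narrowest range, 0.10. Its signal was 1100 and 1114 in the day 0 group, 1127 and 1172 in the day 3 group, 1120 and 1093 under isotype antibody and 1146 on the syngeneic array. All values of this counted probe set lay between 1093 and 1172. A second probe set of Mrpl3, with a lower signal, ran from 248.0 to 410.3. Its log2 changes against isotype were 0.29 for day 0 and 0.55 for day 3, so the narrow range depends on the probe set. Mrpl22, another large-subunit protein and the one with all 3 promoter words, had a range of 0.19. Mrps18c, a small-subunit protein, had a range of 0.20. The 6 members past 2-fold were Mrps31 (1.62), Mrps15 (1.59), Mrpl15 (1.39), Mrpl11 (1.24), Mrpl49 (1.07) and Mrpl50 (1.04).

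For Mrps31, a small-subunit protein with no bacterial counterpart, replicate arrays lay far apart. Its signal was 353.5 and 463.4 in the day 0 group, 381.3 and 589.1 in the day 3 group, 157.4 and 460.4 under isotype antibody and 242.1 on the syngeneic array. The 2 isotype arrays enclosed the syngeneic value and the lower value of each anti-ICOSL group. Mrps31 was the single member at least 2-fold apart between the isotype arrays (1.35% of members, against 3.97% of tested genes). Between replicates the median absolute difference of members was 0.18 in day 0, 0.12 in day 3 and 0.20 in isotype (log2), against 0.22, 0.18 and 0.23 for all tested genes.

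The members with the highest mean signal were Mrps16 (2269), Mrps14 (2164), Mrpl13 (1967), Mrpl42 (1855), Mrpl51 (1849) and Mrpl4 (1815), and those with the lowest were Mrpl1 (175.6), Mrps9 (239.0) and Mrpl38 (284.6). Probes differ in affinity, so these signals do not rank the transcripts.

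The first question was whether the family differs in spleens with an alloreaction under control antibody from spleens after a syngeneic transplant. No member rose or fell in isotype arrays relative to the syngeneic array (0 of 74; 6.62% of all tested probe sets passed, 2.49% higher and 4.12% lower). Of the members, 43 were higher and 31 lower, with a median log2 change of 0.05 and a range of −0.96 to 0.74. With array medians aligned, the median was 0.14 and 51 members were higher, and the median of all tested probe sets was 0.08. Without this alignment, the median over all tested genes was −0.01, beside 0.05 for the members. The smallest adjusted p of a member was 0.152, and 4 of 74 members (5.41%) had an unadjusted p under 0.05, against 23.0% of tested probe sets. The design has 1 syngeneic array, so the fit takes its spread from the other groups.

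No member reached 2-fold, which 11.1% of tested genes and 11.0% of tested probe sets did. The 95% interval of the change lay within 2-fold in either direction for 56 of 74 members (75.7%), against 48.4% of tested genes. This share was 92.0% for mitochondrial protein import, 81.6% for nuclear oxidative phosphorylation subunits and 78.6% for cytosolic ribosomal proteins. For mitochondrial translation factors and ribosome assembly it was 69.2%. The interval lay within 3-fold for 72 members, all except Mrpl15 (−2.00 to 0.08) and Mrps15 (−1.87 to −0.00). These intervals cover the spread between arrays of pooled RNA in 1 probe set per gene, not differences between animals or between probe sets. Isotype arrays lay on 1 side of the syngeneic array for 31 members higher and 23 lower, which is 73.0% of members and 76.9% of tested probe sets (38.0% higher and 38.8% lower), so this share is near the background.

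**Figure D2:**
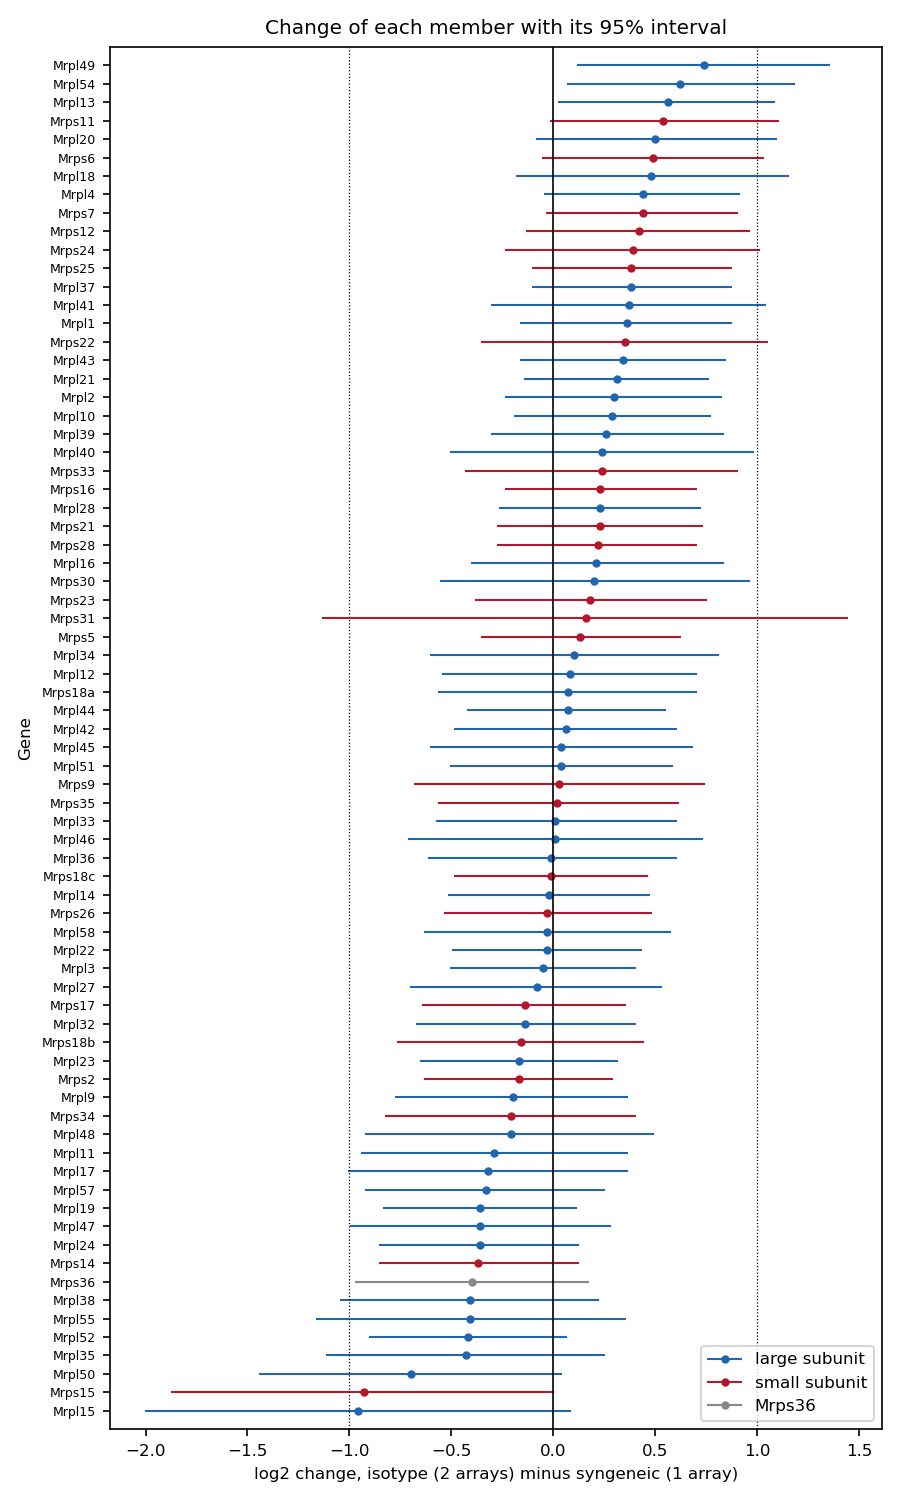
Points are the log2 change of each of the 74 members, isotype minus syngeneic, and bars are 95% intervals of the limma fit, blue for the large subunit, red for the small subunit and grey for Mrps36; dotted lines mark 2-fold. Changes run from −0.96 for Mrpl15 to 0.74 for Mrpl49, and no member passed the adjusted test.

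By subunit, the 49 large-subunit members had a median change of 0.04 (27 higher) and the 24 small-subunit members of 0.17 (16 higher). Members with a bacterial counterpart had a median of 0.02 and those without of 0.07. No difference between these subsets was tested.

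The member with the largest positive change was Mrpl49, a large-subunit protein with no bacterial counterpart. Its signal was 649.0 and 478.3 on the isotype arrays, against 314.2 on the syngeneic array (log2 change 0.74 ± 0.25 SE, limma adjusted p = 0.152). Both isotype arrays were above the syngeneic array, and so were all 4 arrays of the anti-ICOSL groups, at 464.6 to 714.9. A second probe set of Mrpl49 had a change of 0.24.

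Mrpl54, also without a bacterial counterpart, had 486.5 and 572.1 on the isotype arrays, against 325.3 on the syngeneic array (0.62 ± 0.23, limma adjusted p = 0.175). Mrpl13, a large-subunit protein with a bacterial counterpart, had 1808 and 1826 on the isotype arrays, against 1220 on the syngeneic array (0.56 ± 0.22, limma adjusted p = 0.194). In both genes the syngeneic array was the lowest of the 7. The other probe sets of Mrpl13 had changes of 0.01 and 0.05, so the value depends on the probe set.

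Further members with higher isotype values were Mrps11 (0.54), Mrpl20 (0.50), Mrps6 (0.49), Mrpl18 (0.48), Mrpl4 (0.44), Mrps7 (0.44), Mrps12 (0.42), Mrps24 (0.39) and Mrpl37 (0.38). Mrps12 encodes the counterpart of the bacterial protein at the decoding centre, and its signal was 1111 and 1099 on the isotype arrays, against 814.8 on the syngeneic array (limma adjusted p = 0.335). Mrpl18 encodes a protein bound to RNA of the central protuberance in the large subunit, and its signal was 1127 and 738.9 on the isotype arrays, against 640.5 on the syngeneic array (limma adjusted p = 0.360). The 2 isotype values of Mrpl18 were farther from each other than the lower of them was from the syngeneic value.

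At the other end stood Mrpl15, a large-subunit protein with a bacterial counterpart. Its signal was 1154 and 1316 on the isotype arrays, against 2450 on the syngeneic array (−0.96 ± 0.43, limma adjusted p = 0.251). The day 0 arrays, at 2192 and 1283, and the day 3 arrays, at 1653 and 905.9, reached from below the isotype arrays to near the syngeneic array. Mrps15, a small-subunit protein with a bacterial counterpart, had 588.9 and 400.1 on the isotype arrays, against 975.0 on the syngeneic array (−0.93 ± 0.39, limma adjusted p = 0.217). Mrpl50, with no bacterial counterpart, had 614.9 and 367.7 on the isotype arrays, against 807.2 on the syngeneic array (−0.70 ± 0.31, limma adjusted p = 0.241). Mrpl35 (−0.43), Mrpl52 (−0.42) and Mrpl38 (−0.41) followed.

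Probe sets of 1 gene often disagreed, which limits how single members can be read. Of the 28 members with several tested probe sets, 12 had the same sign in all of them and 16 had opposite signs. Some of these opposite signs were between values near 0, as for Mrps5 (−0.14 and 0.13). The same count was not made for other genes of the array, so it is not a trait of the members. In 4 genes, Mrpl15, Mrps11, Mrpl50 and Mrps15, the probe sets were at least 1 apart on the log2 scale. For Mrpl15, the 5 tested probe sets gave changes of −0.96, −0.66, −0.65, −0.49 and 0.87, so only 1 was positive. For Mrps15, the second probe set had 698.1 and 555.7 on the isotype arrays, against 593.2 on the syngeneic array (0.07, limma adjusted p = 0.900). For Mrps11, the second probe set had 13.1 and 2.4 on the isotype arrays, against 51.8 on the syngeneic array, and its change was −0.82 where the counted probe set gave 0.54. None of the 112 tested probe sets of members passed the test in any comparison.

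**Figure D3:**
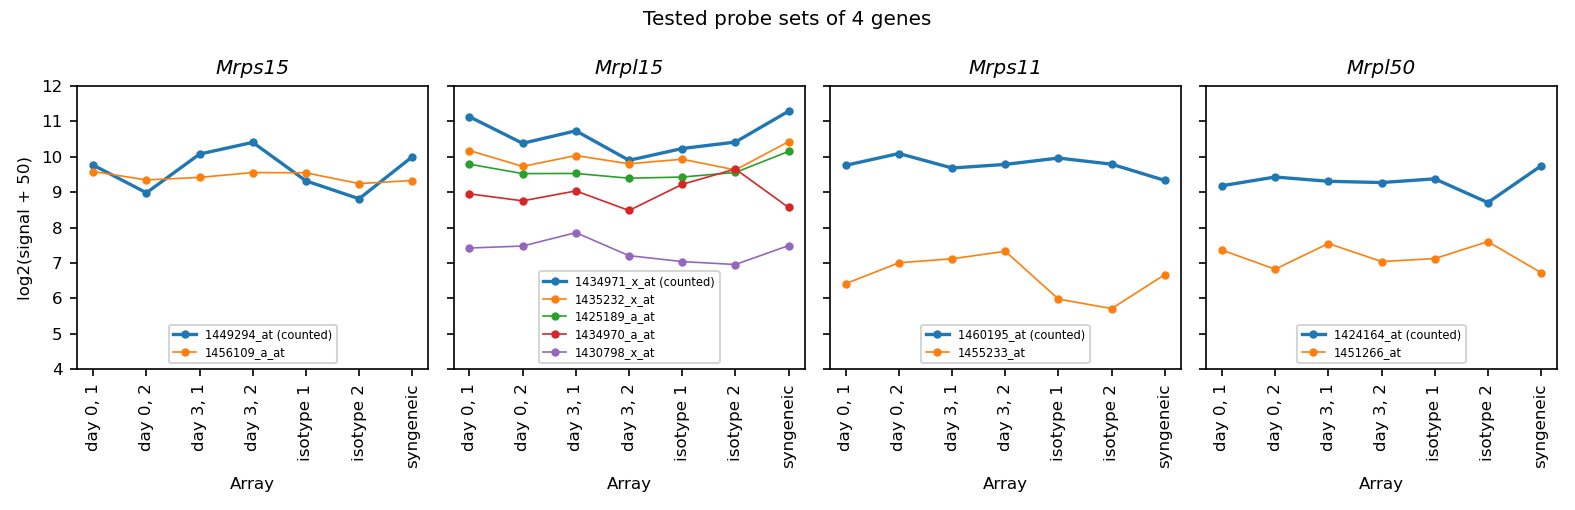
Lines give log2(signal + 50) of each tested probe set of Mrps15, Mrpl15, Mrps11 and Mrpl50 on the 7 arrays, with the counted probe set in a thick line; the arrays are joined only to guide the eye. Levels of different probe sets are not comparable, and their shapes differ within each gene: the counted probe set of Mrps15 runs from 400.1 to 1308 and the other from 555.7 to 717.1.

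Members described for their roles did not pass the test either. Mrpl12, a stalk protein of the large subunit that is also known to bind the mitochondrial RNA polymerase, had 1329 and 1174 on the isotype arrays, against 1178 on the syngeneic array (0.08). The 3 paralogues Mrps18a, Mrps18b and Mrps18c had changes of 0.07, −0.16 and −0.01. Mrps30 (0.20) and Mrpl41 (0.37) encode large-subunit proteins with no bacterial counterpart. Mrps36, the dehydrogenase component, had 611.0 and 710.6 on the isotype arrays, against 887.1 on the syngeneic array (−0.40, limma adjusted p = 0.374).

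The rest of the spleen differed widely between the same arrays. Of 14 macrophage markers, 13 fell in isotype arrays, and their summed signal was 9231 and 8622 in isotype, against 66203 in syngeneic. Of 10 tested neutrophil markers 8 fell (sums 10937 and 10556 in isotype, against 40566 in syngeneic) and of 8 tested erythroid markers 5 fell (6193 and 6154, against 22623). Of 11 T cell markers 4 rose (51435 and 46292 in isotype, against 31127 in syngeneic), and of 8 tested B cell markers 2 fell (19310 and 17605, against 28358). The 7 exocrine pancreas markers on the array, genes of digestive enzymes, had sums of 2181 and 2456 in isotype, against 4833 in syngeneic. Of 5 natural killer markers 1 fell, and none of 6 megakaryocyte and platelet markers passed. The part of these shifts in the members' values was not tested. In bulk RNA, fewer cells of a type and less RNA per cell cannot be told apart.

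Genes of cell division were higher in isotype arrays. All 24 tested proliferation genes had positive changes (23 after quantile normalization), with a median of 0.82, and 5 rose: Rrm2, a subunit of ribonucleotide reductase (1.26), the mitotic kinases Plk1 (1.19) and Aurkb (1.08), Tk1, thymidine kinase (1.04), and Cdk1, the kinase of mitotic entry (1.00). Rrm2 had 7984 and 8074 on the isotype arrays, against 3314 on the syngeneic array (limma adjusted p = 0.0155). The median of the mitochondrial ribosomal protein genes on the same arrays was 0.05.

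Of the related lists, 1 gene passed the test. Of 42 tested cytosolic ribosomal protein genes, 6 were higher and 36 lower, with a median of −0.14 and none past the test (14 higher and a median of −0.05 with array medians aligned). Rps6, a small-subunit protein of the cytosolic ribosome, had a change of −0.95 (limma adjusted p = 0.0574), and Rpl12, a protein of its large subunit, of −1.01 (adjusted p = 0.0617). Of 76 nuclear subunits of oxidative phosphorylation, 43 were higher, the median was 0.09, and 1 fell (57 higher with array medians aligned, and none past the test after quantile normalization). That gene was Cox6b2, an isoform of a cytochrome c oxidase subunit known from testis, with 65.8 and 82.6 on the isotype arrays, against 312.0 on the syngeneic array (−1.55, limma adjusted p = 0.0335). Uqcr10, a subunit of complex III, had a change of 0.82 (adjusted p = 0.254).

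Among 26 tested genes for mitochondrial translation factors and ribosome assembly, none passed, and the median was −0.11 (−0.02 with array medians aligned). Mtif2, which encodes the mitochondrial initiation factor that brings in the first tRNA, had 221.0 and 295.1 on the isotype arrays, against 544.4 on the syngeneic array (−0.96, limma adjusted p = 0.0634). Tufm, the mitochondrial elongation factor, had a change of 0.78 (adjusted p = 0.488). Dap3, a small-subunit protein outside the naming pattern, had 1625 and 1319 on the isotype arrays, against 1598 on the syngeneic array. Protein import, with 25 tested genes, had a median of 0.04, and none passed. In it, Hspa9, the matrix chaperone that drives import, had a change of −0.65 (adjusted p = 0.138), and Timm10, a chaperone between the membranes, of −0.50.

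None of 9 genes for mitochondrial DNA and transcription passed. Ssbp1, which binds single-stranded mitochondrial DNA, had a change of −0.54 and Tefm, the elongation factor of transcription, of −0.29. Of 12 regulators of mitochondrial biogenesis, 10 were tested and none passed. Myc, a transcription factor of growth, had 1236 and 1023 on the isotype arrays, against 1953 on the syngeneic array (−0.77, limma adjusted p = 0.0925), and Ppargc1b, a coactivator, had a change of −0.85 (adjusted p = 0.398).

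**Figure D4:**
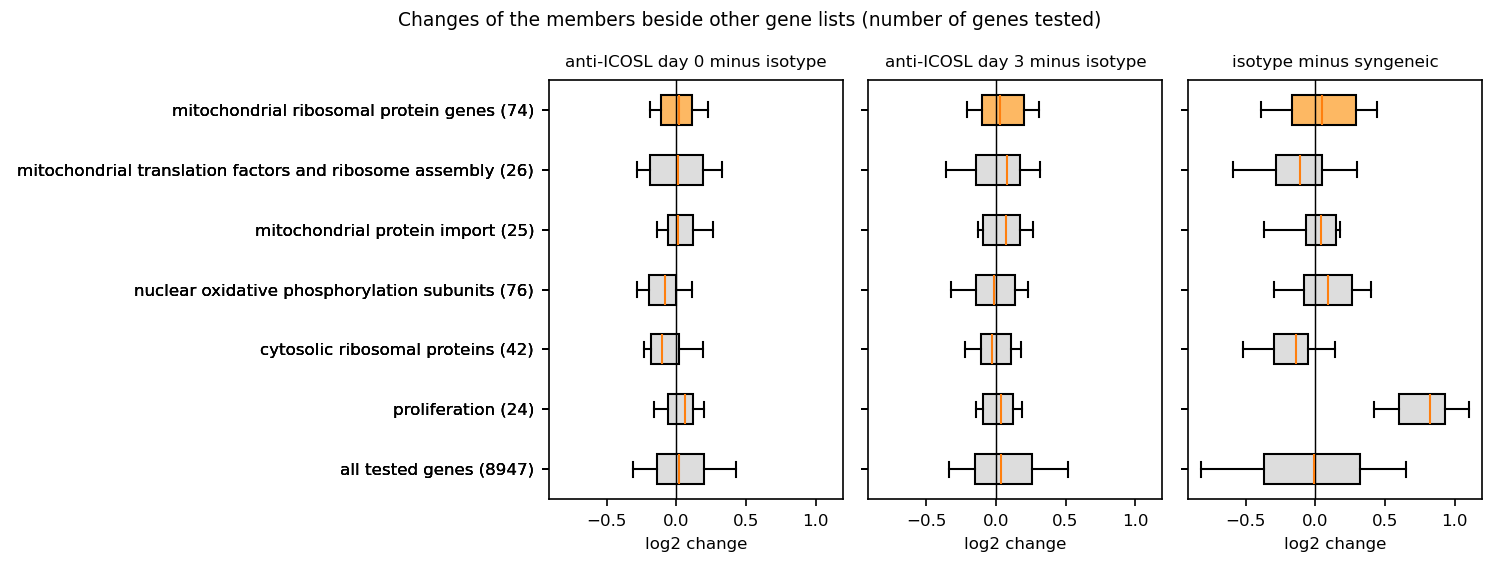
Boxes give the median and quartiles of log2 changes of each gene list, with whiskers at the 10th and 90th percentiles and the number of genes tested in brackets, for anti-ICOSL day 0 minus isotype, anti-ICOSL day 3 minus isotype and isotype minus syngeneic. The mitochondrial ribosomal protein genes, in orange, have medians of 0.02, 0.03 and 0.05 (−0.03, −0.07 and 0.14 with array medians aligned), while the proliferation list has a median of 0.82 between isotype and syngeneic arrays.

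The next question was whether anti-ICOSL antibody from the day of transplant altered the family. No member rose or fell in the day 0 arrays relative to isotype (0 of 74), and no tested probe set of the array passed either (0.0%). An unadjusted p under 0.05 was found for 2 of 74 members (2.70%) and 7.18% of tested probe sets. Of the members, 43 were higher and 31 lower, with a median of 0.02 and a range of −0.58 to 0.59. With array medians aligned, the median was −0.03 and 32 members were higher. The 95% interval lay within 2-fold for 69 of 74 members (93.2%), against 79.6% of tested genes. In the lists of protein import, oxidative phosphorylation, cytosolic ribosomal proteins and mitochondrial translation factors this share was 84.6% to 96.0%. No member reached 2-fold (1.28% of tested probe sets did). Signals separated the groups without overlap for 10 members higher and 14 lower, 32.4% of members against 35.5% of tested probe sets (19.4% higher and 16.2% lower).

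Mrpl11, whose bacterial counterpart lies at the base of the stalk where translation factors bind, had the largest positive change. Its signal was 989.9 and 1101 on the day 0 arrays, against 577.3 and 797.7 on the isotype arrays (0.59 ± 0.22, limma adjusted p = 0.680). The 3 probe sets of Mrpl11 gave 0.02 to 0.59. Mrpl20, a large-subunit protein with a bacterial counterpart, had the largest negative change, with 1054 and 1108 on the day 0 arrays, against 1415 and 1896 on the isotype arrays (−0.58 ± 0.20, limma adjusted p = 0.651). The arrays of the groups did not overlap in either gene. Mrpl20 on the day 0 arrays was close to its syngeneic value of 1141. Mrpl43 (−0.39), Mrpl40 (−0.39), Mrpl9 (−0.27) and Mrpl48 (−0.25) had the next lower values, and Mrps31 (0.48), Mrpl15 (0.43), Mrpl38 (0.33) and Mrps15 (0.31) the next higher ones.

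Antibody from day 3 left 1 day before collection. No member rose or fell in the day 3 arrays relative to isotype (0 of 74; 0.0% of tested probe sets). An unadjusted p under 0.05 was found for 3 of 74 members (4.05%) and 10.2% of tested probe sets. Of the members, 42 were higher and 32 lower, with a median of 0.03 and a range of −0.46 to 1.18. With array medians aligned, the median was −0.07 and 30 members were higher. Signals separated the groups without overlap for 20 members higher and 10 lower, 40.5% of members against 43.1% of tested probe sets (24.3% higher and 18.8% lower). This comparison and the preceding one use the same isotype arrays.

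Mrps15 was the single member at 2-fold or more (1 of 74; 1.84% of tested probe sets). It had 1030 and 1308 on the day 3 arrays, against 588.9 and 400.1 on the isotype arrays (1.18 ± 0.32, limma adjusted p = 0.398). Both day 3 arrays were above both isotype arrays, and of the day 0 arrays 1, at 455.8, lay within the isotype range and the other, at 819.2, above it and below day 3. The second probe set of Mrps15 had 633.7 and 702.2 on the day 3 arrays, against 698.1 and 555.7 on the isotype arrays (0.09), where the groups overlap. For Mrpl11 the signal was 1428 and 1116 on the day 3 arrays, against 577.3 and 797.7 on the isotype arrays (0.85 ± 0.22, limma adjusted p = 0.394). A second probe set of Mrpl11 gave 0.56 and the third 0.17. Mrps31 (0.69), Mrpl46 (0.41) and Mrpl16 (0.37) followed.

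Mrpl2, a large-subunit protein whose bacterial counterpart lies near the peptidyl transferase centre, had the largest negative change, with 700.8 and 863.7 on the day 3 arrays, against 1114 and 1064 on the isotype arrays (−0.46 ± 0.18, limma adjusted p = 0.470). Mrpl40 (−0.42), Mrps33 (−0.39), Mrpl43 (−0.38) and Mrps9 (−0.28) came next. Mrpl43, with no bacterial counterpart, had 957.0 and 1054 in the day 0 group, and 1097 and 926.1 in the day 3 group, against 1305 and 1356 on the isotype arrays. Both isotype arrays were thus above all 4 anti-ICOSL arrays for Mrpl43, with limma adjusted p of 0.712 for day 0 and 0.511 for day 3.

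**Figure D5:**
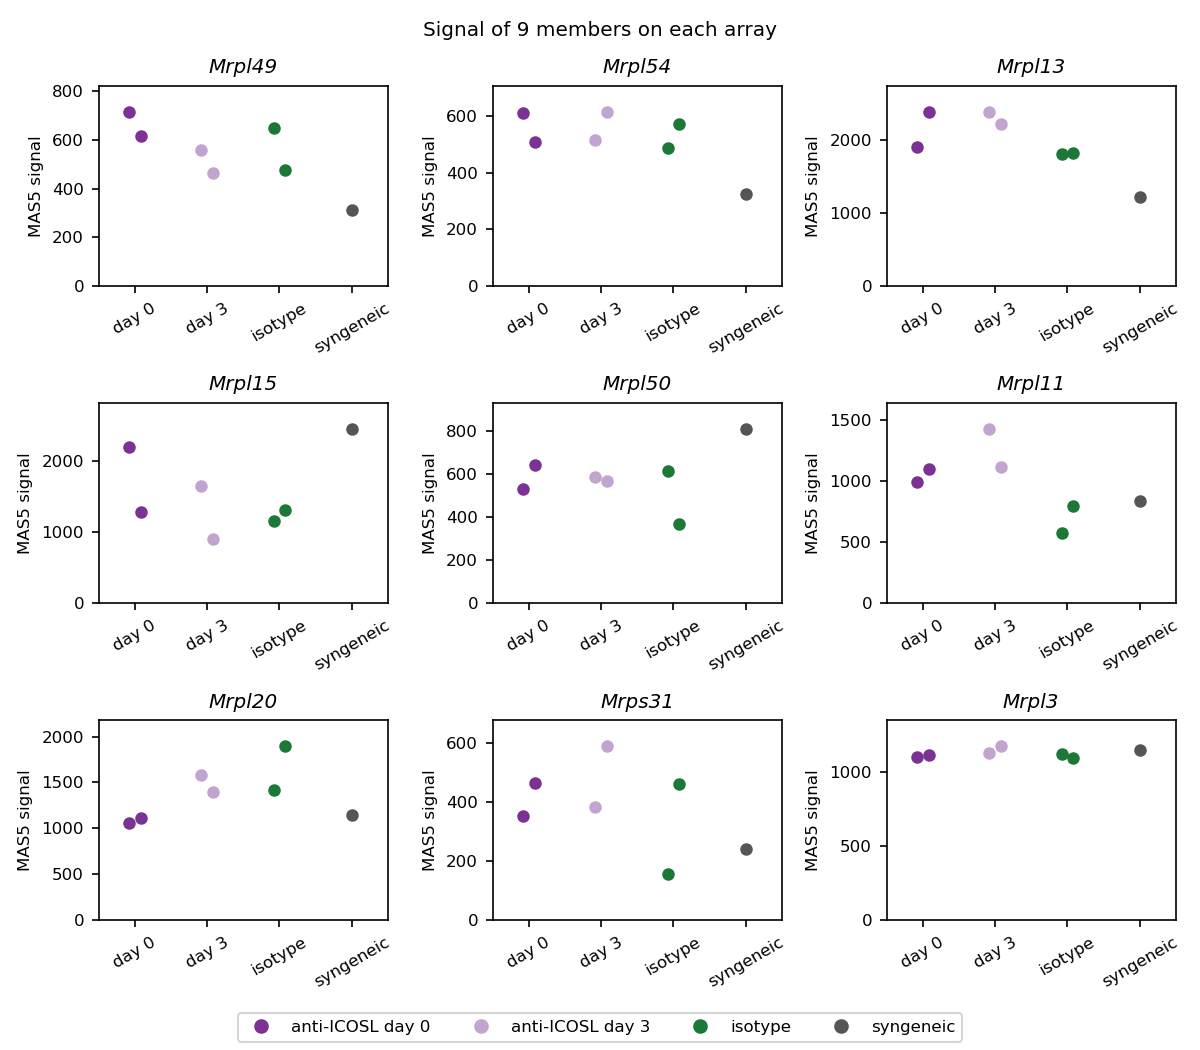
Points are the MAS5 signal of 9 members on each array, with anti-ICOSL day 0, anti-ICOSL day 3, isotype and syngeneic from left to right; each panel has its own axis from 0. Mrpl49, Mrpl54 and Mrpl13 have their lowest value on the syngeneic array, and Mrpl15 and Mrpl50 their highest. The counted probe set of Mrpl3 lies between 1093 and 1172 throughout.

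Setting the starting days against each other, no member passed the test between day 0 and day 3 arrays (0 of 74; 0.0% of tested probe sets). An unadjusted p under 0.05 was found for 2 of 74 members (2.70%) and 6.79% of tested probe sets. In day 0 relative to day 3 arrays, 31 members were higher and 43 lower, with a median of −0.03 (0.02 and 39 higher with array medians aligned). No member reached 2-fold (1.18% of tested probe sets did). Signals separated the groups without overlap for 7 members higher and 23 lower, 40.5% of members against 39.0% of tested probe sets (18.6% higher and 20.4% lower). Mrps15 had 819.2 and 455.8 on the day 0 arrays, against 1030 and 1308 on the day 3 arrays (−0.87 ± 0.32, limma adjusted p = 0.711), while its second probe set gave −0.02. Mrps9, a small-subunit protein with a low signal, had 287.9 and 311.2 on the day 0 arrays, against 240.3 and 137.8 on the day 3 arrays (0.58 ± 0.24, limma adjusted p = 0.735). The other probe sets of Mrps9 gave −0.25, −0.10 and 0.06, so the value depends on the probe set. Mrpl20 (−0.44), Mrpl52 (−0.34), Mrps24 (−0.30) and Mrpl14 (−0.30) were the next lower in day 0, and Mrpl15 (0.44), Mrpl49 (0.35), Mrps33 (0.33) and Mrpl47 (0.32) the next higher. Probe sets of opposite sign were also found here for Mrps24 (−0.30 to 0.28), Mrpl15 (−0.08 to 0.44) and Mrpl49 (−0.10 to 0.35).

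Cell type markers were also read in the anti-ICOSL comparisons. T cell markers summed to 43510 and 44634 in the day 0 group, and 43329 and 41691 in the day 3 group, against 51435 and 46292 on the isotype arrays. Of 11 T cell markers, 10 were lower in day 0 and 8 in day 3 than in isotype arrays. The summed macrophage markers were 14630 and 14564 in the day 0 group, and 12967 and 11887 in the day 3 group, against 9231 and 8622 on the isotype arrays. Of 14 macrophage markers, 13 were higher in day 0 and 12 in day 3 than in isotype arrays. Exocrine pancreas markers summed to 790 and 1169 in the day 0 group, and 1354 and 1643 in the day 3 group, against 2181 and 2456 on the isotype arrays. All 7 were lower in day 0, with a median log2 change of −1.39, and 6 of 7 in day 3, with a median of −0.35. B cell markers summed to 14402 and 12282 in the day 0 group, and 13302 and 12764 in the day 3 group, against 19310 and 17605 on the isotype arrays, and 7 of 8 tested were lower in each. Erythroid markers summed to 5230 and 4972 in the day 0 group, against 7644 and 7948 in the day 3 group. All 8 tested were lower in day 0 than in day 3, with a median of −0.67. Relative to isotype arrays, at 6193 and 6154, all 8 were lower in day 0 and 7 higher in day 3. Neutrophil markers summed to 13783 and 14422 in day 0 and 11510 and 10916 in day 3, against 10937 and 10556 in isotype. Natural killer sums were 2352 to 2847 on the anti-ICOSL arrays, against 2030 and 2276 in isotype. Megakaryocyte and platelet sums were 1186 to 1390, against 884 and 1125. No marker of these lists passed the test in the comparisons among allogeneic groups. The part of these values in those of the members was not tested.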

How the data were processed

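Transcripts were measured on 7 Affymetrix arrays with 10 µg of RNA each. Per the submitters' processing notes, the deposited intensity values are linear MAS5 signals. MAS5 scales arrays to a common level: the 2% trimmed means were 500.18 to 500.19. Genome build and MAS5 version are not given in the sources used here. Of 22690 probe sets, 64 controls were left out. Symbols came from the platform annotation, and all 74 member gene IDs matched RefSeq. Probe sets with several symbols are not members.

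Probe sets whose mean reached the 40th percentile of all signals (99.67) in at least 1 group were tested on log2(signal + 50), which understates changes of low signals. A single fit in limma 3.58.1 (R 4.3.3) over all arrays gave the 4 comparisons, with 3 residual and 3.36 prior degrees of freedom, two-sided p-values and Benjamini-Hochberg adjustment over 15372 probe sets at 0.05. The lone syngeneic array took its error from the spread within the allogeneic groups. The procedure was also run on simulated data with normal noise of the same size for all probe sets. That run therefore does not cover probe sets that differ in noise, as the real ones do. Exact permutation of 2 against 2 arrays cannot reach 0.05 and was not used.

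Members, gene lists and alternatives were chosen with earlier results of these data known. Named members are the 12 largest positive and 6 largest negative changes of isotype against syngeneic, the 5 largest each way elsewhere, the 6 highest and 3 lowest in signal, and 8 chosen for their known roles; other lists give genes past the test and the 2 largest changes. Dap3, Ighmbp2 and other promoter neighbours, and second probe sets, were named after their values were seen.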

Additional observations from a re-analysis of the deposited data

How the results depend on the processing

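No member passed the test in the unaltered setting, in any of the 16 alternatives tried for isotype against syngeneic or in any of the 17 tried for each other comparison. The smallest adjusted p of a member over these alternatives was 0.0643 for isotype against syngeneic, 0.407 for day 0 against isotype, 0.181 for day 3 against isotype and 0.530 for day 0 against day 3 (limma). The median change of members was small and took either sign in 3 comparisons. With each array centred on its median it was 0.14 for isotype against syngeneic, −0.03 for day 0 against isotype, −0.07 for day 3 against isotype and 0.02 for day 0 against day 3, and quantile normalization gave 0.05 for day 3 against isotype. With 1 array left out it ran from −0.00 to 0.14, −0.02 to 0.04, −0.01 to 0.07 and −0.07 to −0.03 in the same order, with isotype array 2 left out giving 0.14 and isotype array 1 −0.00 against syngeneic. Averaging the probe sets of a gene reversed Mrps11 between isotype and syngeneic (−0.14), whose probe sets had opposite signs. The second of them had signals below the filter level in both groups. Leaving out 1 array reversed 4 named values: Mrpl48 (−0.56 to 0.07 with each array left out) and Mrps31 (−0.17 to 1.13) for day 0 against isotype without isotype array 1, Mrps15 (−0.08 to 0.70) for day 0 against isotype without day 0 array 1, and Mrps9 (−0.59 to 0.03) for day 3 against isotype without day 3 array 2. Of the other values of named genes, 479 under changed settings and 314 with an array left out kept their direction and their side of the threshold, but not their size: of 48 named values, none past the test, 26 moved by over 1.5 times with some array left out (5 of 18 for isotype against syngeneic, 9 of 10 for day 0 against isotype, 5 of 10 for day 3 against isotype and 7 of 10 for day 0 against day 3). Among them were Mrpl50 for isotype against syngeneic (−1.04 to −0.37), Mrpl40 (−0.72 to −0.06), Mrpl15 (0.06 to 0.81), Mrpl38 (0.09 to 0.58) and Mrpl20 (−0.78 to −0.37) for day 0 against isotype, Mrps31 (0.04 to 1.34) and Mrpl40 (−0.74 to −0.09) for day 3 against isotype, and Mrps15 (−1.26 to −0.48), Mrps9 (0.27 to 0.90) and Mrpl15 (0.02 to 0.85) for day 0 against day 3. The cause of these shifts was not tested.

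Over all tested probe sets, the count that passed between isotype and syngeneic was 1017 and moved with the setting: 311 in a fit of the compared groups alone, 542 without a filter, 1616 with the filter at the 60th percentile, 1786 with trend and robust options, and 406 to 713 with 1 array left out. In the other comparisons, where 0 passed, alternatives gave up to 21 for day 0 against isotype, 8 for day 3 against isotype and 12 for day 0 against day 3. Fitted with the array number of the labels as a replicate block, no member passed (0 of 74; smallest adjusted p 0.117 for isotype against syngeneic), the medians were 0.05, 0.02, 0.03 and −0.03, and 798 probe sets passed between isotype and syngeneic. Differences of array 1 and array 2 correlated at −0.01 to 0.07 between groups, so no pairing by number was seen in these values. Whether arrays of the same number shared an experiment or run was not tested. With 2 arrays of pooled RNA in an allogeneic group and 1 syngeneic array, differences between animals were not measured.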

Other observations

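In all, 3 probe sets carry the symbol of a mitochondrial ribosomal protein gene beside that of another gene and were not counted as members. The probe set of Ccdc142 and Mrpl53 had a signal of 861.7 and 951.1 on the isotype arrays, against 569.4 on the syngeneic array (log2 change 0.63, limma adjusted p = 0.143), and 803.0 to 1089 on the anti-ICOSL arrays. The probe set of Gm6238 and Mrpl30 had 1579 and 1570 on the day 0 arrays, against 1076 and 1098 on the day 3 arrays (0.51, limma adjusted p = 0.735), and the isotype arrays, at 1177 and 1730, covered nearly the whole range. The probe set of Nme3 and Mrps34 had 598.3 and 479.7 on the isotype arrays, against 413.7 on the syngeneic array (0.34, limma adjusted p = 0.406). Which of the paired genes gave these signals cannot be told apart.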
